A study of Ambystoma mexicanum with 8 samples.

Results

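The cells described are the mature haemoglobin-rich erythroid cells of a single-cell RNA dataset from axolotl limbs. They were chosen by 50% or more of UMIs (unique molecular identifiers, 1 per captured RNA molecule) on gene rows named HBA1, HBD, HBZ, HBE1, HBG1 or HBG2, fewer than 2000 detected rows, and MKI67 and TOP2A, 2 genes of dividing cells, at under 2 UMIs together. Cells with 3 or more UMIs of the epithelial genes EPCAM, CDH1 and DSP were dropped. This left 576 of 35013 cells (1.65%), called the selected cells below. Of 709 cells that met the haemoglobin limit, 591 were under the row limit, 577 also met the limit on dividing cells and 576 the epithelial one.

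Red blood cells carry oxygen on haemoglobin, a protein of paired alpha-type and beta-type globin chains that each hold a haem group. In salamanders such as the axolotl (Ambystoma mexicanum) the circulating red cell keeps its nucleus, so it can appear in a single-cell RNA experiment sorted on DNA content. Maturing erythroid cells make haem in the mitochondria and cytosol, take up and store iron, build a spectrin-based membrane skeleton and fill their cytoplasm with globin message. In mammals the HBZ (alpha-type) and HBG (beta-type) genes are the embryonic and fetal forms and HBD is a minor adult beta-type chain. The axolotl gene models carry these symbols in the files, and no developmental stage is implied by them here.

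The study compared contra with intact limbs, both from wild-type animals. Contra limbs, which the series text treats as systemically activated, were taken 14 days after amputation, and intact limbs are those the text calls homeostatic. The labels give no age, do not say which limb was amputated and do not say whether animals were pooled or separate, so p-values measure the spread between samples, which may be technical. Live cells with a 2C DNA content were sorted after Hoechst, calcein and propidium iodide staining and sequenced with 10x 3′ v3.1 chemistry. Contra samples 1, 2, 4 and 5 and intact samples 1, 2 and 4 were used, and intact sample 5 was not analysed here. The sorted 2C cells are dividing in the design text but non-dividing in the sort protocol.

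The 7 libraries held 4367 to 5775 cells and 97977234 to 133670940 UMIs. Every deposited cell had at least 3003 UMIs and 1000 detected rows. Cell barcode sequences occurring in more than 1 library numbered 118, and 6 selected cells carried such a barcode. Scrublet, a doublet caller, put 0 selected cells above a score of 0.25. Contra samples 1, 2, 4 and 5 gave 49, 64, 68 and 80 selected cells, and intact samples 1, 2 and 4 gave 132, 118 and 65. Summed over cells these held 1522332 to 1817177 UMIs in contra and 1820288 to 5139837 UMIs in intact samples.

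The haemoglobin limit cut through a continuous population. The rule counted 17 gene rows but not the rows named HB-AM (gene model AMEX60DD201021531.1) and HB-AM-GLNC1 (AMEX60DD201026267.2), which held 15.8% and 22.9% of the haemoglobin UMIs of the selected cells as means over 7 libraries. With those rows counted, 7953 cells met every limit, among them all 576 selected cells. The other 7377, called the wider set, had a median of 43.5% of UMIs on the 17 rows, against 51.2% in the selected cells. The selected cell nearest the limit was at 50.01% and the nearest cell outside at 49.998%. Within 1 percentage point of the limit lay 246 selected cells and 370 others. On the detected-row limit the nearest selected cell had 1986 rows and the nearest outside had 2008.

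**Figure D1:**
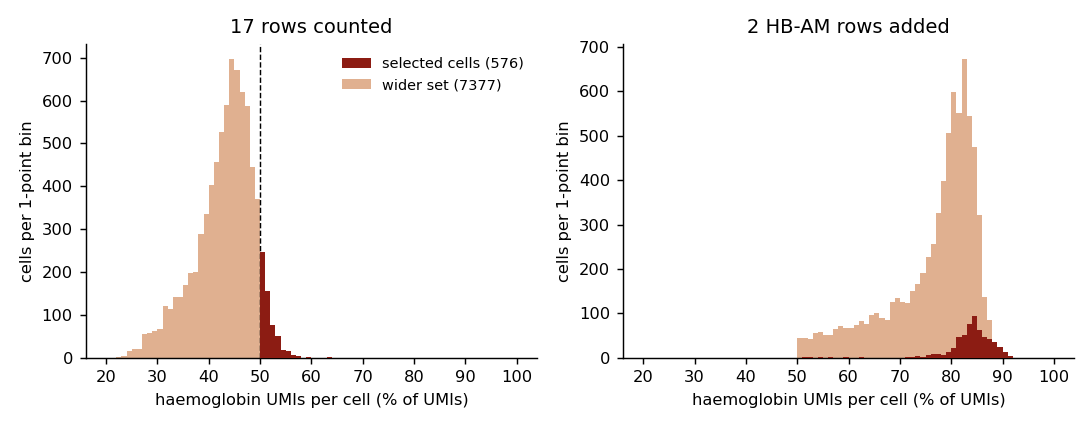
Number of cells (vertical axis) by haemoglobin share of a cell's UMIs in percent (horizontal axis, 1-point bins), with 17 rows counted (left) and the HB-AM rows added (right), for the 576 selected cells (dark) and the wider set of 7377 cells (light). The dashed line is the 50% limit, which cuts the falling edge of a single peak. With all 19 rows the selected cells have a median of 84.4% and the wider set 79.5%.

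Globin message made up most UMIs of both sets. Over all 19 haemoglobin rows the median share of UMIs was 84.4% in the selected cells and 79.5% in the wider set, against 0.665% in 9691 cells of the same libraries with 3 or more UMIs of T cell receptor complex genes (CD3 cells), used here as a cell type that should lack it. The selected cells had a median of 30288 UMIs, 4571 of them outside haemoglobin, and 1420 detected rows. Wider-set cells had a median of 22232 UMIs, 4648 of them outside haemoglobin, and 1414 rows. CD3 cells had a median of 12199 UMIs and 2926 rows. When each cell was thinned to 3000 UMIs the medians were 284 rows in the selected cells, 349 in the wider set and 1151 in CD3 cells. These differences follow from the rule and are given as a description without a test.

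Markers matched the erythroid name. ALAS2, the first enzyme of haem synthesis in red cells, was found in 100% of selected cells and 21.02% of CD3 cells. SLC4A1, the anion exchanger of the red cell membrane, was found in 98.6% and 5.52%. At median depths of 30288 UMIs for selected cells and 12199 for CD3 cells, the CD3 shares give the background in a cell type that should lack these genes. The T cell genes CD3E and CD3G averaged 8.73 and 6.51 CPM outside haemoglobin in selected cells. They averaged 601 and 457 in CD3 cells, which were chosen on such genes. CPM outside haemoglobin is a counts-per-million scale that leaves the 19 haemoglobin rows out of the total, and CPM of all UMIs keeps them in. Of the 576 selected cells, 533 had 0 CD3 UMIs. EPCAM, CDH1 and DSP UMIs were 0 in 462 cells and MKI67 and TOP2A UMIs in 542. The rule itself limits these epithelial and dividing-cell counts, so they are a description and no support for the name. The iron uptake receptor TFRC and the progenitor factors GATA2 and MYB were at 0 counts in the selected cells. TFRC and GATA2 were low elsewhere too, so their 0 counts tell little about the selected cells. TFRC, GATA2 and MYB averaged 0.210, 0.0699 and 0.588 CPM outside haemoglobin in the wider set and 0.868, 0.207 and 4.78 in CD3 cells. In cells at or above the epithelial limit of the rule they averaged 1.23, 0.228 and 12.5. MYB was found in 4.32% of CD3 cells and 19.1% of those epithelial cells, but in 0.271% of the wider set. Its level in the selected cells was thus below that of CD3 and epithelial cells, given without a test. GATA1 and EPB42 were not analysed here.

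The word mature comes from the rule and was not tested. The comparison with cells of 2000 or more rows is the one the rule made, so its ratios are a description. Against 100 cells that met the same limits on haemoglobin, dividing-cell and epithelial genes but had 2000 or more rows (0 in contra 5 and 57 in intact 2), the lowest ratios in the selected cells were those of DNA replication genes. RRM2 (ribonucleotide reductase) averaged 23.4 ± 14.0 CPM outside haemoglobin in selected cells (SD over libraries). In the row-rich cells it averaged 117 ± 153 on 48 UMIs in all, a ratio of 0.199. Row-rich means leave out contra 5, while selected-cell means keep it. Each library weighs alike in them, so the 4 row-rich cells of contra 2 count as much as the 57 of intact 2. The SD in row-rich cells was also above the mean for UHRF1 (133 ± 135) and E2F2 (111 ± 123), so the size of such ratios is uncertain. MCM2, MCM4 and MCM5 of the replicative helicase had ratios of 0.205, 0.273 and 0.256. UHRF1, E2F2, ATAD5, PCLAF, SLBP and CHAF1A, all genes of replication or S phase, lay between 0.1997 and 0.266. Against the wider set, UHRF1, MCM4 and ATAD5 were higher in the selected cells in 7 of 7 libraries, MCM2, MCM5 and PCLAF in 6, RRM2 and SLBP in 5 and E2F2 and CHAF1A in 4. UHRF1 averaged 26.6 in selected cells and 11.7 in the wider set, MCM4 averaged 36.6 and 20.03, and ATAD5 averaged 25.03 and 14.5. The highest ratios to the row-rich cells were those of CYP1A1 (2.65), S100P (1.91), an FTH1 row (1.86), TSC22D1 (1.85), SON (1.80) and RPL18 (1.69), followed by CSTB, another FTH1 row, GDA and CANSWER at 1.63 to 1.69. Some rested on few UMIs, as for SON at 59.0 ± 54.9 (SD, 80 UMIs) in the row-rich cells. S100P ran from 40.1 in intact 2 to 497 in contra 2 among selected cells. It averaged 8970 in cells with 3 or more UMIs of EPCAM, CDH1 and DSP. The selected cells are therefore named here by their haemoglobin content, with no stage assigned.

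The share of selected cells among all cells was lower in contra samples, without passing a test. It was 0.848%, 1.47%, 1.43% and 1.41% in contra samples 1, 2, 4 and 5, against 2.59%, 2.41% and 1.46% in intact samples 1, 2 and 4. Intact 4 lay inside the contra range, so the groups overlapped. Contra averaged 1.29% ± 0.294 (SD, n = 4) and intact 2.15% ± 0.604 (SD, n = 3), a difference of -0.863 percentage points. The exact permutation test over the 35 splits, two-sided, gave p = 0.0571, and 0.171 after Benjamini-Hochberg adjustment over 6 measures. Exact 95% binomial intervals, which cover counting error only, ran from 0.628% to 1.12% in contra 1 and from 2.17% to 3.06% in intact 1. The denominator of all cells includes those with 3 or more UMIs of EPCAM, CDH1 and DSP, whose share varied between libraries. They made up 4.94%, 22.5%, 34.1% and 49.2% of cells in contra 1, 2, 4 and 5. In intact 1, 2 and 4 they made up 4.45%, 4.61% and 34.4%. Their effect on the share of selected cells was not tested. Within samples numbered 1 and 2 the difference in the share of selected cells was -1.34 points. Within those numbered 4 and 5 it was -0.0411 points.

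The size of this difference depended on the limits and on the haemoglobin rows counted. With the HB-AM rows included the share was 25.2%, 29.1%, 19.97% and 14.7% in contra samples 1, 2, 4 and 5 and 33.3%, 20.7% and 16.5% in intact samples 1, 2 and 4. Both groups then spread over the same range, with a difference of -1.28 percentage points and an exact permutation p of 0.83. With a limit of 2500 in place of 2000 detected rows, the share among all cells differed by -1.24 points with an exact permutation p of 0.0286, the smallest that 4 against 3 samples can give. With a limit of 1500 rows it differed by -0.136 points with an exact permutation p of 0.686.

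**Figure D2:**
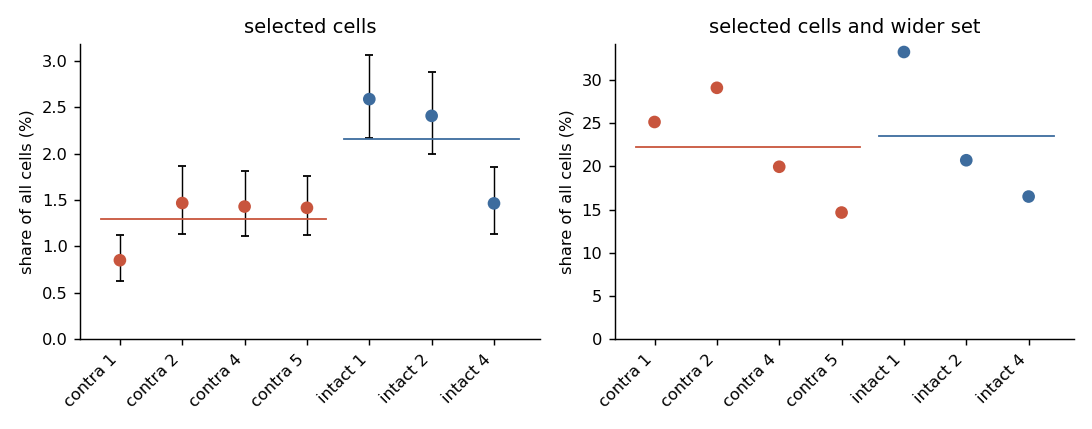
Share of all cells in percent (vertical axis) by library, for the selected cells (left, bars are exact 95% binomial intervals) and for selected cells and wider set together (right), with contra in red and intact in blue and a line at each group's mean. Intact 1 and 2 stand above the contra libraries on the left at 2.59% and 2.41%, while on the right contra 2 (29.1%) lies above intact 2 and 4.

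Most measures of the selected cells overlapped between the groups. Median UMIs per cell were 35991, 28242.5, 25984 and 19066.5 in contra 1, 2, 4 and 5, against 38731, 34949.5 and 27720 in intact 1, 2 and 4 (exact permutation p = 0.229). Median detected rows, which the rule bounds at 2000, averaged 1371.5 ± 116 across contra and 1492 ± 142 across intact libraries (SD), given without a test. The mitochondrial share was 1.19% ± 0.386 across contra and 0.869% ± 0.290 across intact libraries (SD, exact permutation p = 0.314). Selected cells made up 88.9% ± 4.02 of the cells at or above the haemoglobin limit across contra and 78.4% ± 12.1 across intact libraries (SD, exact permutation p = 0.114). The low value was intact 2 at 65.2%, and thinning the detected rows to 3000 UMIs turned that difference to -0.544 points. It was 10.5 points as defined, 3.92 without intact 2, 1.48 with a limit of 2500 rows and 20.04 with one of 1500 rows.

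The haemoglobin share on the 17 rows is the value the cells were chosen on, with 50% as its lower bound in both groups, and is given as a description. It was 51.3%, 51.3%, 51.5% and 51.6% of UMIs in contra samples 1, 2, 4 and 5, against 51.7%, 52.2% and 51.7% in intact samples 1, 2 and 4. The groups did not overlap, and the difference was -0.456 points. Without intact 2 it was -0.286 points.

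The 6 leading rows carried 99.2% of the haemoglobin UMIs in the selected cells. The beta-type HBD row (AMEX60DD201026264.1) held 28.1% ± 1.75 (SD over 7 libraries), HB-AM-GLNC1 22.9% ± 1.10, HBG1 (AMEX60DD201021527.1) 19.6% ± 1.17 and HB-AM 15.8% ± 0.610. The alpha-type HBZ row (AMEX60DD301021534.13) held 6.45% ± 1.65 and an HBG2 row (AMEX60DD201028125.2) 6.44% ± 2.09. These are shares of 3′ UMIs, not corrected for gene length, and rows of near-identical copies could share reads. A further HBG2 row (AMEX60DD201028124.7) held 0.506% and HBE1 0.0114%.

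The selected cells and the wider set differed in this make-up, in part in the direction their definition favours. HBZ held 6.45% in the selected cells and 3.40% in the wider set, higher in 7 of 7 libraries. The abundant HBG2 row held 6.44% in the selected cells and 3.93% in the wider set, higher in 6 of 7 libraries, with intact 1 as the exception (2.72% in selected cells, 2.86% in the wider set). HB-AM held 15.8% in the selected cells and 19.01% in the wider set, and HBG1 held 19.6% and 21.1%. Both were lower in the selected cells in 7 of 7 libraries, as was HB-AM-GLNC1 at 22.9% against 25.4%. Since the limit counts HBZ and HBG2 but not the HB-AM rows, cells rich in HBZ and HBG2 reach it more easily. The shift in those rows is a description of the choice. The limit counts HBG1 too. Shares of the 19 rows sum to the whole and so are not independent, and the cause of the lower HBG1 share was not tested.

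**Figure D3:**
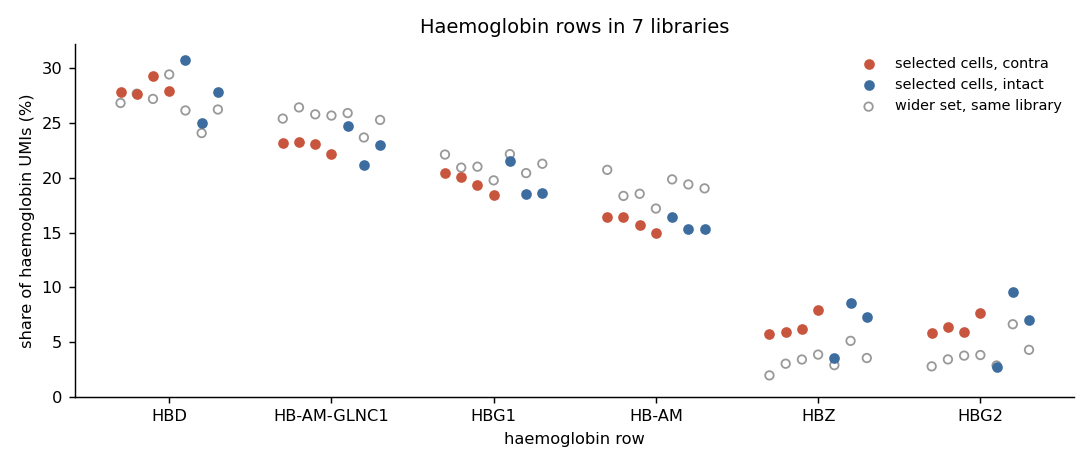
Share of haemoglobin UMIs in percent (vertical axis) for the 6 leading rows (horizontal axis), 1 filled point per library for the selected cells (contra red, intact blue) and 1 open grey point for the wider set of the same library. HB-AM and HBG1 lie lower and HBZ higher in the selected cells in all 7 libraries, and contra and intact points overlap in every row.

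Contra and intact samples overlapped in haemoglobin make-up. Over the 17 rows, HBD made up 46.0% ± 1.36 of haemoglobin UMIs across the 4 contra libraries and 45.6% ± 6.50 across the 3 intact libraries (SD). HBG1 made up 32.0% ± 1.99 in contra and 32.0% ± 4.07 in intact samples. HBG2 rows together made up 11.1% ± 1.34 in contra and 11.5% ± 6.44 in intact samples, and HBZ rows 10.9% ± 1.51 in contra and 10.8% ± 4.01 in intact samples. The cells were chosen on the sum of these rows, and the limit favours cells rich in HBZ and HBG2. The shares are therefore given as a description, and no p is read from them. The spread among intact samples was wide: HBZ (AMEX60DD301021534.13) held 5.75%, 5.91%, 6.17% and 7.91% of all haemoglobin UMIs in contra 1, 2, 4 and 5, against 3.58%, 8.55% and 7.27% in intact 1, 2 and 4.

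Within every library the globin rows moved against or with each other from cell to cell. Spearman's rho between HBZ and the abundant HBG2 row ran from 0.147 to 0.63 over the 7 libraries (49 to 132 cells each). Between the same HBG2 row and HBD it ran from -0.832 to -0.556. Shares within a cell sum to the whole, which by itself pushes such values below 0, so they are given as a description.

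In 8 selected cells HBZ (AMEX60DD301021534.13) and the HBG2 rows AMEX60DD201028125.2 and AMEX60DD201028124.7 together held 50% or more of the haemoglobin UMIs, a limit set after the values were seen. The median over all 576 cells was 12.7%, and 22 cells lay between 30% and 50%. Of the 8 cells, 2 came from contra 5 and 6 from intact 2. The contra 5 cells held 63.1% and 63.7% on these 3 rows, with HBD at 9.51% and 9.18%. Among the intact 2 cells, 5 held 84.1% to 93.2%, with HBD at 0.918% to 6.16% and HBG1 at 0.212% to 0.272%, and the other one held 55.8%. The 5 cells lay apart from the other selected cells, while those at 55.8% to 63.7% continued the upper tail. In the wider set, cells of intact 1 held 85.7% and 84.8% and a cell of contra 4 held 75.5%. Their HBG1 shares were 0.664%, 0.679% and 0.111%. The other wider-set cells at 50% or more held 50.4% to 63.0%. Over all selected cells HBD had a median of 28.3%.

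Some minor globin rows had much of their message in the same cells, and others had little. The 8 cells held 85.9% of the UMIs of a rare HBG2 row (AMEX60DD102028123.2, 358 of 417 UMIs in the selected cells). They held 28.2% of HBA1 UMIs (130 of 461) and 28.1% of those of a rare HBZ row (AMEX60DD201021535.1, 72 of 256). Of HBE1 UMIs they held 1.11%, and of another HBZ row (AMEX60DD301021537.1, 31831 UMIs) 2.44%. Of the 3 rows they were chosen on, they held 2.22% (HBZ), 1.85% and 15.7% (HBG2 AMEX60DD201028125.2 and AMEX60DD201028124.7). They held 0.109% of HBD and 0.106% of HBG1 UMIs. Their depth was low, 8040 to 25575 UMIs per cell, and Scrublet scores were at or under 0.0302. In the wider set 15 of 7377 cells (0.203%) passed the same limit, 8 of them in intact 2 and 4 in intact 1. In the selected cells it was 8 of 576 (1.39%), a difference that the rule favours, since it counts HBZ and HBG2 but not the HB-AM rows. Over all 19 rows the 8 cells had 51.8% to 73.2% of UMIs on haemoglobin, against a median of 84.4% in the selected cells.

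Red cell genes outside haemoglobin were read in these 8 cells on few UMIs. ALAS2 had 3016 CPM outside haemoglobin in the 8 cells (123 UMIs) and 10158 in the other selected cells. SLC4A1 had 466 (19 UMIs) and 1322, and PRDX2, a peroxiredoxin abundant in red cells, had 2330 (95 UMIs) and 3773. With 6 of the 8 cells in 1 library, these are values of those cells and not of a condition.

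**Figure D4:**
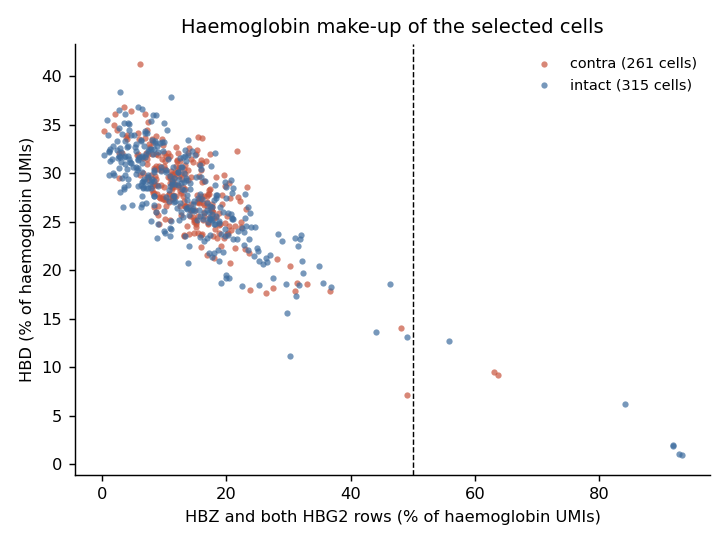
Share of haemoglobin UMIs in percent on HBD (vertical axis) against that on HBZ and 2 HBG2 rows together (horizontal axis), 1 point for each of the 576 selected cells, contra in red and intact in blue. Most cells fall on 1 band with a median of 12.7% on the horizontal axis, and 8 cells lie right of the dashed line at 50%, reaching 93.2%.

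Outside haemoglobin the selected cells held message of haem synthesis and iron handling. Levels below are CPM outside haemoglobin, mean ± SD over 7 libraries. Comparisons with the wider set and CD3 cells are descriptions, since the rule sets these cells apart. ALAS2 stood at 10427 ± 2001 in selected cells, 7294 in the wider set and 30.9 in CD3 cells, higher than the wider set in 7 of 7 libraries. The later pathway enzymes UROD, FECH and CPOX stood at 791 ± 71.6, 548 ± 79.9 and 411 ± 55.4 in selected cells and at 666, 398 and 310 in the wider set. ALAD, which joins the first pathway precursors, averaged 119 in selected cells and 76.0 in the wider set. TMEM14C, a mitochondrial transporter of a haem precursor in mammals, averaged 1453 ± 339 in selected cells.

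Iron genes were led by ferritin. FTH1, the iron-storing ferritin heavy chain, summed over 7 rows to 22683 ± 3075 in selected cells, 22291 in the wider set and 1610 in CD3 cells, and reads may be split among these rows. SLC25A37, the mitochondrial iron importer, averaged 833 ± 112 in selected cells and 11.5 in CD3 cells. NCOA4, which delivers ferritin to lysosomes, averaged 1240 ± 88.6 in selected cells and 58.2 in CD3 cells. BLVRB, a reductase of haem breakdown products, averaged 1303 ± 155 in selected cells and 1007 in the wider set, higher in 7 of 7 libraries.

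Membrane, antioxidant and cytoskeletal genes of red cells were also detected. SLC4A1 averaged 1350 ± 134 in selected cells and 7.37 in CD3 cells. RHAG, an ammonia channel subunit, averaged 839 ± 59.7, and the skeleton genes ANK1, EPB41 and SPTB averaged 747, 669 and 464. PRDX2 averaged 3654 ± 374 in selected cells, 2837 in the wider set and 90.1 in CD3 cells, higher than the wider set in 7 of 7 libraries. PRDX1 averaged 1806 ± 261, SOD1 637 ± 91.2 and GPX1 558 ± 77.7. TSPO, a mitochondrial outer membrane protein, averaged 4855 ± 325, and the tubulins TUBB3 and TUBA1B averaged 1998 ± 195 and 1832 ± 384.

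Transcription factors of the red cell lineage were present at low levels. LMO2, NFE2, TAL1, GFI1B and KLF1 averaged 208, 154, 138, 84.03 and 72.1 in selected cells, against 1.85, 1.06, 0.759, 0.680 and 0.410 in CD3 cells. KLF1, an activator of globin genes in mammals, was found in 25.9% of selected cells and 0.537% of CD3 cells. GFI1B, a repressor, averaged 84.03 in selected cells and 103 in the wider set, lower in 7 of 7 libraries. EPOR, the erythropoietin receptor, averaged 43.9 ± 7.09 in selected cells and 0.355 in CD3 cells. Glycolytic genes were low beside CD3 cells: ALDOA averaged 77.4 in selected cells and 337 in CD3 cells, and LDHA 33.9 and 292. BPGM, which makes an oxygen-affinity regulator in mammalian red cells, averaged 160 in selected cells and 32.7 in CD3 cells. Among other lists the leading genes included HMGB2 (a chromatin protein, 933 ± 75.3 in selected cells and 1684 in CD3 cells) and KLF4 (318 ± 76.04 in selected cells and 3.21 in CD3 cells). CCND1, a G1 cyclin, averaged 519 ± 78.5 in selected cells and 376 in the wider set, higher in 7 of 7 libraries.

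**Figure D5:**
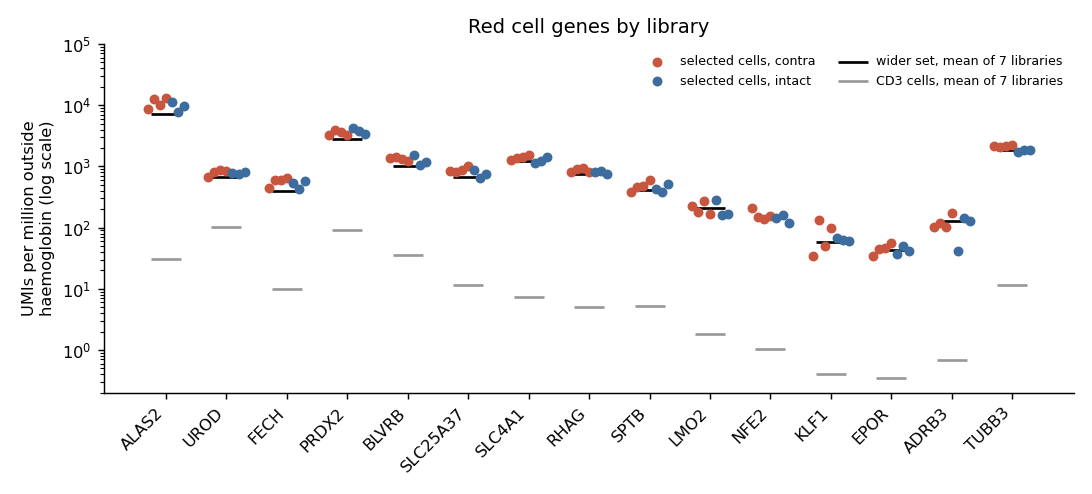
CPM outside haemoglobin (vertical log axis) for 15 genes, 1 point per library for the selected cells (contra red, intact blue), with the mean over 7 libraries of the wider set (black bar) and CD3 cells (grey bar). Selected cells and wider set lie close together and CD3 cells lower, as for ALAS2 at 10427, 7294 and 30.9.

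ADRB3, a beta-adrenergic receptor, was also detected in the selected cells. It was found in 37.0% of selected cells, 38.6% of the wider set and 0.826% of CD3 cells, at 115 ± 40.8, 127 and 0.681 CPM outside haemoglobin. Its level was 100, 117, 102 and 173 in contra 1, 2, 4 and 5, against 42.1, 142 and 129 in intact 1, 2 and 4. The groups overlapped, and edgeR gave a log2 fold change of 0.18 ± 0.33 (SE) with a Benjamini-Hochberg adjusted p of 0.997. ADRA1A, ADRA1B, ADRA1D, ADRA2A and ADRA2B were at 0 counts in the selected cells. PRKAR1A and ADCY9, which act downstream of such receptors, averaged 174 and 119.

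Among markers of other blood cells GP1BB stood out, and epidermal genes are described with the contra and intact comparison below. GP1BB, a platelet membrane gene in mammals, averaged 169 ± 35.1 in selected cells, 205 in the wider set and 1.24 in CD3 cells, and was found in 49.7%, 56.5% and 1.29% of cells. GP9 averaged 36.8 in selected cells and 5.49 in CD3 cells. Other thrombocyte genes were scarce in the selected cells, with 3 UMIs of ITGA2B, 2 of ITGB3 and 0 of F13A1. The B cell list (4 genes) summed to 10.6, the macrophage list (6) to 55.8, the neutrophil list (3) to 19.3, the fibroblast list (8) to 55.5 and the endothelial list (5) to 26.4, against 11.99, 62.3, 366, 38.2 and 7.80 in CD3 cells.

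Among symbol-bearing rows outside haemoglobin and the mitochondrial genome, the 20 most abundant in the selected cells were an FTH1 row (16280 ± 3420), ALAS2, B2M (9093 ± 1126, the light chain of MHC class I), CIRBP (7053 ± 1354, a cold-inducible RNA-binding protein), TPT1 (7066 ± 1287), EEF1G (8115 ± 734) and 14 ribosomal protein rows. The ribosomal rows ran from 6528 ± 521 for RPS28 to 9399 ± 960 for RPL23. A row with no symbol (AMEX60DD201016339.1) was higher still, at 35933 in selected cells and 43618 in the wider set.

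Most rows were close between the selected cells and the wider set. Of 880 symbol-bearing rows compared, 872 were within 1.5 times, 57 were higher and 60 lower in the selected cells in all 7 libraries. Among the highest ratios were those of SELENOH (1.91, a nucleolar selenoprotein), ALAD (1.57) and INSIG1 (1.504, a regulator of sterol synthesis), each higher in 7 of 7 libraries. The lowest were CALR (0.579, an endoplasmic reticulum chaperone), H2BC12 (0.613, a histone), IRF1 (0.62, an interferon response factor) and an FTH1 row (0.666), followed by CYP1A1 (0.667, a xenobiotic-metabolising enzyme). CALR and CYP1A1 were lower in 7 of 7 libraries, and H2BC12 was higher in 3 of 7. CYP1A1 averaged 414 in selected cells, 621 in the wider set and 156 in the row-rich cells.

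No row was called different between contra and intact selected cells. The edgeR quasi-likelihood test on UMIs summed per sample called 0 of 2758 rows at an adjusted p under 0.05 (background 0%), with 121 rows at an unadjusted p under 0.05 and a smallest adjusted p of 0.186. DESeq2 called 0 rows as well, with 49 at an unadjusted p under 0.05. Contra and intact values did not overlap in 102 of 2758 rows (3.70%). The lists followed this pattern, with 0 rows called in each. The median log2 fold change of all rows was -6.02e-05, and among list rows tested it was 0.075 for haem synthesis (10 rows), 0.025 for iron (12), 0.094 for membrane skeleton and transport (14) and -0.093 for antioxidant genes (8). It was -0.17 for haemoglobin (12), 0.17 for glycolysis and gas transport (7), -0.070 for autophagy and protein turnover (9), -0.17 for chromatin condensation (4), 0.082 for microtubules (11), -0.015 for erythropoietin signalling (3), 0.0029 for immediate early genes (4) and 0.17 for cell cycle exit (3). The haemoglobin rows are those the cells were chosen on, so their median is a description. The thrombocyte and epidermal lists had 2 rows tested each, with medians of -0.17 and 1.86.

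Single erythroid genes overlapped between the groups. ALAS2 had 8728, 12730, 10166 and 13029 CPM outside haemoglobin in contra 1, 2, 4 and 5, against 11114, 7628 and 9593 in intact 1, 2 and 4. The groups overlapped, and the edgeR log2 fold change was 0.17 ± 0.18 (SE) with an adjusted p of 0.997. KLF1 had 34.8, 132, 49.2 and 99.3 in contra and 66.4, 62.2 and 61.1 in intact samples, with a log2 fold change of 0.23 ± 0.33 (SE) and an adjusted edgeR p of 0.997. HBD differed by -0.18 ± 0.27 (log2, SE, edgeR), with 236714 CPM of all UMIs in contra and 236687 in intact samples before TMM scaling. The cells were chosen on a sum of rows that includes HBD, so its values are a description.

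Of 21 translation rows tested 0 were called, and 19 had a log2 fold change below 0, against 1380 of 2758 over all rows. Their median was -0.18, against -6.02e-05 over all rows, and no test of the list was made. Summed over the list, levels ran from 26054 to 31953 CPM outside haemoglobin in contra and from 30089 to 35628 in intact samples, so the ranges overlapped. RPS6 was at 6874 ± 613 across contra and 7430 ± 672 across intact libraries (SD). Of the transcription factor rows 6 of 8 lay above 0 (median 0.14). The adrenergic and cAMP list had 6 of 6 rows above 0, with a median of 0.22 and 1 row (ARRB1, log2 fold change 0.76, adjusted p 0.997) at an unadjusted edgeR p under 0.05.

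Among the 6 symbol-bearing rows with the smallest unadjusted p were ANXA2, ANXA1, KRT12, PPDPFL and KRT5, none of them called. ANXA2, a membrane-binding annexin, had 1.17, 18.2, 11.8 and 21.7 CPM of all UMIs in contra 1, 2, 4 and 5, against 1.36, 0.492 and 2.75 in intact 1, 2 and 4. Its log2 fold change was 3.08 ± 0.60 (SE, edgeR, unadjusted p 6.75e-05, adjusted p 0.186). KRT12, a keratin of epithelia, had 12.9, 174, 96.9 and 189 in contra and 12.1, 22.6 and 53.3 in intact samples, a log2 fold change of 1.94 ± 0.52 (SE) with an adjusted edgeR p of 0.545. KRT5 of basal epidermis had a log2 fold change of 1.87 ± 0.55 and ANXA1 of 2.36 ± 0.58 (SE), with adjusted edgeR p values of 0.600 and 0.460. In each of these rows contra 2, 4 and 5 lay above every intact value. On CPM of all UMIs contra 1 lay among the intact values for ANXA2, ANXA1 and KRT12 and below them for KRT5, at 6.44 against 8.37 to 39.01. On CPM outside haemoglobin contra 1 was below them for KRT12 too, at 85.0 against 100, 127 and 329 in intact 1, 2 and 4.

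The annexin and keratin rows were abundant in the epithelial-marker cells (3 or more UMIs of EPCAM, CDH1 and DSP), and other cells showed a like spread over libraries. KRT12 averaged 27060 CPM outside haemoglobin in epithelial-marker cells of contra and 19289 in those of intact samples. In CD3 cells it had 31.8, 386, 209 and 359 in contra 1, 2, 4 and 5, against 37.0, 42.6 and 110 in intact 1, 2 and 4. In the selected cells the same scale gave 85.0, 1156, 608 and 1055 in contra and 100, 127 and 329 in intact samples. Epithelial-marker cells made up 4.94%, 22.5%, 34.1% and 49.2% of cells in contra 1, 2, 4 and 5 and 4.45%, 4.61% and 34.4% in intact 1, 2 and 4. Of the 11 epidermal list genes 10 were detected and KRT14 was at 0, and their sum ran from 73.4 to 1013 in contra and from 131 to 367 in intact selected cells. Their part in the contra and intact difference was not tested. Without contra 1 the edgeR test called 11 rows, all higher in contra, among them ANXA2, ANXA1, KRT12 and KRT5. Without the filter on low counts it called 39 of 27764 rows, and the same 4 genes passed.

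PPDPFL had 3.51, 3.85, 5.603 and 2.63 CPM of all UMIs in contra 1, 2, 4 and 5, against 5.06, 11.1 and 9.34 in intact 1, 2 and 4, so contra 4 lay above intact 1. On CPM outside haemoglobin the same contra samples had 23.2, 25.6, 35.2 and 14.7. The intact samples had 42.1, 62.2 and 57.7, so the groups did not overlap on that scale. PPDPFL was higher in the selected than in the CD3 cells, at 24.7 ± 8.42 CPM outside haemoglobin in contra and 54.0 ± 10.5 in intact selected cells and at 0.676 and 0.615 in CD3 cells of contra and intact samples. Its log2 fold change was -1.18 ± 0.34 (SE, edgeR, adjusted p 0.571). In the wider set it averaged 47.1 ± 17.02 in contra and 53.9 ± 13.4 in intact samples.

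Fold changes were sensitive to single libraries. Without intact 2, 6 rows were called by edgeR. Of these, 5 were histone rows lower in contra (H2BC4, H2AC20, H2AJ, H2BC12 and H3C14), with log2 fold changes of -2.26, -2.05, -1.86, -1.48 and -2.25 in that order, and an RPLP0 row was higher at 4.08. Without contra 1 the 11 rows given above were called. Without intact 1, 2 rows were called, both lower in contra, LOC115074559 at -2.41 and HBG2 (AMEX60DD201028124.7) at -1.59. The cells were chosen on a sum that includes this HBG2 row, so its value is a description. Leaving out contra 2, 4 or 5 or intact 4 gave 0 calls.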

How the data were processed

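The authors deposited 1 matrix of unnormalised UMI counts, whole numbers for each gene model in each cell. The submitters' processing notes name kallisto 0.48.0 and Seurat 4.2.0, and the genome build is not given in the sources used here. Each cell's sample was read from its deposited name. A gene's symbol is the last hyphen-separated part of its row name before the gene model name, and rows sharing a symbol were summed for the choice of cells. Members and gene lists were chosen with earlier results of these data known.

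UMIs were summed per sample over the selected cells and tested with edgeR 4.0.16 (quasi-likelihood, TMM, filterByExpr, Benjamini-Hochberg at 0.05, contra over intact). Log2 fold changes are from this fit and depend on its scaling. Values of 1 number per sample went into a two-sided exact permutation test (difference in group means, 35 splits, smallest p 0.0286). DESeq2 1.42.0 and Scrublet in scanpy 1.11.5 served as alternatives, with a term for sample numbers, other limits, thinning to 3000 UMIs and leaving out each library. Scripts were tested on simulated data. Named genes were the haemoglobin rows with 1% or more, up to 4 leading genes per list, the 20 most abundant rows, the 10 highest and 10 lowest ratios to row-rich cells, and, with no row called, the 6 symbol-bearing rows of smallest p. Genes named beyond these, and the cells rich in HBZ and HBG2, were picked after their values were seen. Intervals cover counting error only. The files pair no genome position or sequence with a gene model, and 0 columns were left out. Some rows that met these rules are not reported here.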

Additional observations from a re-analysis of the deposited data

Results flagged for a closer look

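Contra samples were checked for a value far from the other 3, over 27 measures, and chance would flag about 1 in 20. In 2 of them the gap was wide. The share of selected cells among all cells was 0.848% in contra 1, against 1.41% to 1.47% in the other contra samples. The HBD share of haemoglobin UMIs over 19 rows was 29.3% in contra 4, against 27.7% to 27.9% in the other contra samples. Intact samples numbered 3 and were not checked.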

How the results depend on the processing

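Over 28 results and 399 alternative values, 344 kept their direction and side of the threshold and 30 reversed. Part of the kept count was fixed in advance, so it is no test of stability. For measures with 1 value per sample, the exact test cannot reach p under 0.05 with a library left out or with the replicate block. There only the direction could change. Removing doublet calls took away 0 selected cells, and differences within pairs of sample numbers had no p. The share among all cells passed the unadjusted threshold with a row limit of 2500 (-1.24 points), and was -0.136 points with one of 1500. The haemoglobin share is the value the cells were chosen on, so no p is read from it. It differed by -0.456 points as defined, -0.285 with thinned rows, -0.422 with HB-AM rows counted and -0.515 with the replicate block. With a library left out it differed by -0.551 to -0.286 points. The share of selected cells among those at the haemoglobin limit reversed with thinned rows (-0.544). Differences in haemoglobin symbol shares were near 0 and several reversed. HBZ was -0.118 with thinned rows, -1.51 with HB-AM rows counted and -0.683 with the block. HBG1 was 0.0420 with thinned rows and 0.845 with the block, and HBE1 was -0.00108 with the block. Leaving out a library gave ranges of -0.00732 to 0.00144 for HBA1, -2.74 to 3.74 for HBD, -2.20 to 1.62 for HBZ, -0.00108 to 0.00243 for HBE1, -1.43 to 2.31 for HBG1 and -3.84 to 2.55 for HBG2. Calls were 0 to 11 with a library left out, 39 without the filter on low counts (19 higher, 20 lower in contra) and 1 with HB-AM rows counted and the block, while other alternatives gave 0.

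In log2 fold changes, leaving out a library gave -0.12 to 0.44 for KLF1, -0.24 to 0.63 for ADRB3, -0.34 to 0.095 for HB-AM-GLNC1, -0.33 to 0.12 for HBG1, -0.35 to 0.13 for HBD, -0.28 to 0.10 for HB-AM, -0.28 to 0.037 for HBZ and -0.33 to 0.23 for HBG2. The cells were chosen on a sum that includes the HBD, HBG1, HBZ and HBG2 rows, so fold changes of these rows are a description. The HBG2 row was 0.033 with the block and 0.0094 with thinned rows. The cause of these changes was not tested. Deviations from the group mean had correlations of -0.0488, -0.0296 and 0.0249 between same-numbered samples. With 4 contra and 3 intact samples and few cells in each, these values cannot tell whether the numbers pair samples. The block gave 0 calls. A haemoglobin limit of 60% left 1 cell (intact 4), a share difference of -0.0075 points, and allowed no gene test. Depth is limited by 258945 to 723364 UMIs outside haemoglobin per sample.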
